A study of Mus musculus with 6 samples.

Results

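The SNAP-25-like SNAREs and the machinery that recycles them were followed in mouse motor neuron-like cells depleted of the RNA-binding protein Quaking. The genes taken were *Snap23*, its paralogs *Snap25*, *Snap29* and *Snap47*, the ATPase gene *Nsf* and the attachment protein genes *Napa*, *Napb* and *Napg*. These 8 genes, of 23038 genes listed, were found by symbol, and 8 of 8 passed the filter on low counts, which 12665 genes passed in all. *Snap23* was selected on the contrast described here, since it was lower after Qk knockdown in these same libraries, so its values are given as a description with no test. The other 7 genes were taken as its relatives and partners, whatever their values.

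SNARE proteins on a vesicle and on its target membrane wind into a helical bundle that draws the membranes together and lets them fuse. SNAP-25-like proteins give a pair of helices to that bundle, whereas syntaxins and VAMPs give a single helix each. After fusion the attachment proteins (soluble NSF attachment proteins, also abbreviated SNAPs but unrelated to SNAP-25) load the ATPase NSF onto the spent bundle, and NSF takes it apart for another round. In neurons SNAP-25 is known for the release of synaptic vesicles, while SNAP-23 serves exocytosis in many cell types.

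Messenger RNA was measured in NSC-34 cells, an immortal hybrid line derived by fusion of mouse spinal cord motor neurons with neuroblastoma. The 3 siNC libraries came from cells given control siRNA and 3 siQk libraries from cells given siRNA to *Qk*. The siRNAs to *Qk* were of 3 different sequences, and no source used here states which library received which, although the siRNAs and the siQk libraries are both numbered from 1 to 3. The spread within siQk may therefore include differences between siRNAs. No other allele, drug or time point separates the groups, and the methods describe the replicates as independent cultures of the one line.

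Library totals ran from 43000503 to 53565950 counts. *Qk* (Entrez 19317), the target of the siRNA, was at 9.67, 8.18 and 14.9 RPKM in siNC and at 1.39, 1.71 and 1.10 RPKM in siQk (reads scaled to exon length and library total). All siQk libraries lay below all siNC libraries, at 12.8% of the siNC mean. Of the markers listed for neurons, 5 of 6 were above 1 RPKM in every library, and *Stmn2* was at 0 in 5 of the 6 libraries. Of 6 motor neuron markers only *Isl1* and *Slc18a3* were above 1 RPKM in every library, and *Mnx1*, *Lhx3*, *Chat* and *Slc5a7* were below 1 RPKM in all 6. The summed motor neuron list was 6.85 to 7.39 RPKM in siNC and 9.83 to 12.6 RPKM in siQk. The summed list of glial, immune, endothelial and fibroblast markers was 4.18 to 5.67 RPKM in siNC and 3.02 to 4.63 RPKM in siQk, with *Aqp4* at 0 in all 6 libraries, 10 of 11 markers below 1 RPKM in every library, and *Pecam1* above it. The motor neuron sum separated the groups through *Isl1* (mean 4.79 RPKM in siNC and 8.59 RPKM in siQk), while *Slc18a3* was at 2.02 and 1.93 RPKM. The other sum overlapped. The summed neuron markers were 181 to 447 RPKM in siNC and 295 to 443 RPKM in siQk and also overlapped. The part of the 3 sums in the results that follow was not tested.

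*Snap23* (Entrez 20619, GRCm38 chr2:120567671-120601255, plus strand, protein-coding) encodes the broadly expressed plasma membrane paralog of SNAP-25. Its level was 17.8, 15.3 and 20.7 RPKM in the siNC libraries, from 2017, 1615 and 1975 counts. In the siQk libraries it was 6.40, 11.2 and 5.80 RPKM, from 649, 1334 and 594 counts. Every siQk library was below every siNC library, and siQk replicate 2 stood nearest to the controls. The mean was 17.9 ± 2.66 RPKM (SD, n = 3) in siNC and 7.80 ± 2.96 RPKM (SD, n = 3) in siQk, which left 43.5% of the siNC mean. On the log2 scale of the fit the difference was -1.23 (SE 0.33), and 0.134% of genes tested had a value this low or lower. In bulk RNA, fewer cells that make a transcript and less transcript per cell cannot be told apart.

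The spread of *Snap23* within a group rested on siQk replicate 2. Its within-group SD on the log2 scale was 0.40 over both groups, above that of 77.5% of genes, and 0.22 without that library. Taken by group, the SD was 0.26 in siNC, where the median gene also had 0.26, and 0.50 in siQk, where the median gene had 0.20. Within siNC the 3 libraries ranked replicate 3, 1 and 2 from the highest level of *Snap23* to the lowest, and within siQk they ranked 2, 1 and 3. *Qk* ranked the libraries in the same order in both groups. This likeness was noticed after the values were seen, and 338 of 12664 other genes (2.67%) shared that order. None of the other 7 SNARE machinery genes ranked the libraries as *Qk* did in both groups, a count that lies near that share.

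**Figure D1:**
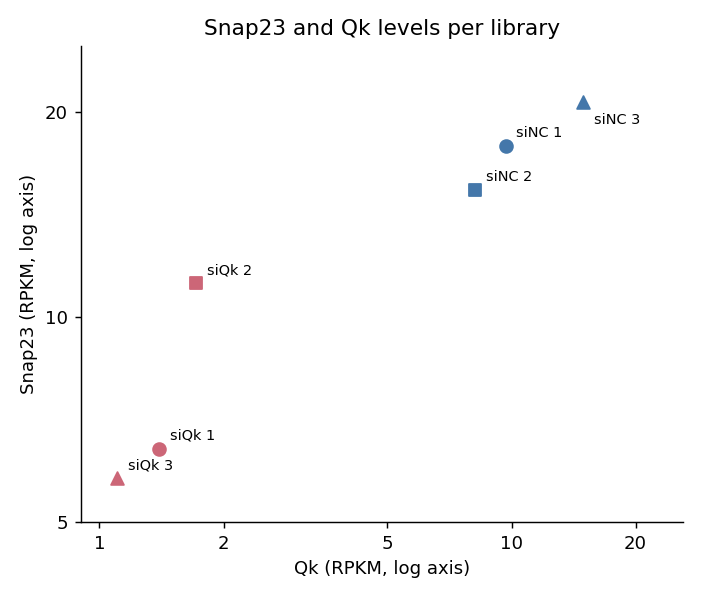
Level of Snap23 (vertical, RPKM, log axis) against Qk (horizontal, RPKM, log axis) in the 6 libraries, one point each, blue for siNC and red for siQk, with a marker shape per replicate number. The siQk points lie between 5.80 and 11.2 RPKM of Snap23 and the siNC points between 15.3 and 20.7 RPKM, and in both groups a library with more Qk had more Snap23. This order was noticed after the values were seen, and 2.67% of other genes shared it.

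The transcript of *Snap23* was searched for the word ACTAAC and also for ACTAAT (each T being a U in RNA), the core of the sequence that Quaking proteins are known to bind, on the sense strand of annotated transcripts. The 2 words differ in their last letter, so each site counts once. The longest coding transcript, of 2730 bases, held 1 site, in coding exon 8. Of 1357 genes whose transcripts were within 10% of that length, 38.5% held at least 1 site. The same site was in 6 of the 9 annotated *Snap23* transcripts, and no transcript held a second. It is printed with 12 bases on either side along the spliced transcript, with the word in capitals, and the window crosses an exon junction (word at chr2:120596647-120596652, plus strand).
Snap23 coding site: attaaacgtataACTAATgatgccagagaa

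The annotation also gives *Snap23* a transcript that ends its reading frame early, shown because the level is summed over the gene and does not separate transcripts. This transcript, annotated as a target of nonsense-mediated decay, has a 93-base exon 6 (chr2:120590822-120590914) whose reading frame meets a stop codon, TGA, after 28 coding bases, printed in capitals at the end of a 30-base stretch (chr2:120590823-120590852). The exon held neither ACTAAC nor ACTAAT. The exon length in the files, 2223 bases, is shorter than the 4293 annotated exon bases, and whether it includes this exon is not known. Use of the exon is not analysed here.
Snap23 decay exon 6 to its stop: tctaacatccaagccgggctcagtagcTGA

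The genes on either side of *Snap23* had overlapping groups. *Zfp106*, 3828 bases before its start on the minus strand, encodes a zinc finger protein and averaged 23.4 ± 3.81 RPKM in siNC against 20.02 ± 2.69 RPKM in siQk (log2 difference -0.26, SE 0.19, two-sided exact permutation p = 0.3 on RPKM). *Lrrc57*, 2983 bases after its end on the minus strand, had 6.83 ± 0.743 and 7.995 ± 1.66 RPKM (log2 difference 0.20, SE 0.18, exact permutation p = 0.4). With 3 libraries against 3, that test can go no lower than 0.1. The adjusted p of the edgeR quasi-likelihood fit was 0.9996 for both neighbours, and the ± values here and in the lists of partners are SDs over 3 libraries. No exon of *Snap23* overlapped another gene, and 0.414% of its 75-base stretches occurred in another gene's transcripts.

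Of the 7 other genes, 0 passed the call of the edgeR quasi-likelihood test (p under 0.01 and Benjamini-Hochberg adjusted p under 0.1). Of all 12665 genes, 1 did (*Qk*, 0.00790%). The study, with edgeR at these cutoffs, counted *Snap23* among its lowered transcripts, and does not say which edgeR test it used. The fit here is therefore not a repeat of that call, and *Snap23* is given no test. At an unadjusted p under 0.05 there was 1 of 7, against 2.89% of all genes. Non-overlapping groups were also found for 1 of 7, against 8.84% of all genes. Both counts were *Napb*. The edgeR exact test called 0 of 7 (0.0395% of all genes) and DESeq2 called 1 of 7 (0.150% of all genes), again *Napb*. Apart from *Napb*, the log2 differences ran from -0.11 to 0.25. The adjusted p of the edgeR quasi-likelihood test was 0.9996 for each of the 7 genes. The median of the 7 was 0.0020, beside 0.0034 for all genes.

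*Snap25* (Entrez 20614, chr2:136713453-136782428, plus strand) encodes the neuronal paralog and was the nearest in sequence to *Snap23*, with 60.2% identical positions in an alignment of their coding bases. It had 46.4, 58.9 and 48.1 RPKM in siNC and 59.6, 71.3 and 55.0 RPKM in siQk. The siQk values tended to lie higher, but siNC replicate 2 was above siQk replicate 3, so the groups overlapped. The means were 51.1 ± 6.79 and 62.0 ± 8.40 RPKM (SD, n = 3 each). The log2 difference was 0.25 (SE 0.14, exact permutation p = 0.2).

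*Snap47* (Entrez 67826, chr11:59407134-59451186, minus strand) encodes a longer, more distant paralog found largely on internal membranes, with 37.3% coding identity to *Snap23* (gaps counted, coding lengths 1239 and 663 bases). It had 65.5, 65.6 and 62.9 RPKM in siNC and 68.9, 52.6 and 61.3 RPKM in siQk. The controls were within 3 RPKM of each other and the siQk libraries spread on both sides of them. The log2 difference was -0.11 (SE 0.12, exact permutation p = 0.6). Its exons share 307 bases with *Jmjd4* on the opposite strand, which the library kit does not separate. *Jmjd4* was lower in level, at 6.32 RPKM in siNC and 7.61 RPKM in siQk.

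*Snap29* (Entrez 67474, chr16:17405986-17430827, plus strand) encodes a soluble paralog that works in endosomal traffic and in the fusion of autophagosomes with lysosomes. It had 7.99, 11.8 and 6.04 RPKM in siNC and 7.54, 10.3 and 8.34 RPKM in siQk. Replicate 2 was the highest library in both groups and the siNC range enclosed the siQk range. The means were 8.62 ± 2.94 and 8.73 ± 1.42 RPKM (SD, n = 3 each), with a log2 difference of 0.0020 (SE 0.29, exact permutation p = 1). The sign of so small a difference changed with the processing. Exons of *Snap29* share 60 bases with *Pi4ka* on the opposite strand (18.2 RPKM in siNC and 19.1 RPKM in siQk).

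Among the longest coding transcripts of the 4 SNAP-25-like genes, that of *Snap29* held the most ACTAAC or ACTAAT words, 2 in its 3′ UTR, as 16.5% of 1431 genes of like length did or exceeded. They are printed, word in capitals, because this coding transcript held more such words than that of *Snap23* (chr16:17429796-17429825 and chr16:17430615-17430644, plus strand). The longest coding transcripts of *Snap25* and *Snap47* held 0 sites, where 30.2% and 26.9% of genes of like length held at least 1. Over all annotated transcripts *Snap25* held 3 sites, in a retained-intron transcript, and *Snap47* held 0. No match says only that these letters are not in those transcripts.
Snap29 3′ site 1: atatgtatttccACTAATtggttttgtttt
Snap29 3′ site 2: cctctggagaagACTAACcgttactgacgt

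The summed level of the family differed between the groups by less than the SD of either. Together *Snap23*, *Snap25*, *Snap29* and *Snap47* came to 142 ± 8.10 RPKM (SD, n = 3) in siNC and 139 ± 7.90 RPKM (SD, n = 3) in siQk. *Snap23* made up 12.9%, 10.1% and 15.0% of it in siNC and 4.50%, 7.70% and 4.44% in siQk. *Snap25* made up 33.7%, 38.8% and 34.9% in siNC and 41.8%, 49.0% and 42.2% in siQk. Neither share overlapped between the groups. The shares add up to the whole, so a lower share of one gene raises those of the others, and the level of *Snap25* itself overlapped. *Snap29* held 5.99 ± 1.71% and 6.26 ± 0.903%, and *Snap47* 45.5 ± 2.16% and 43.9 ± 6.67% (SD, n = 3 each). The ratio of *Snap25* to *Snap23* was 2.60, 3.84 and 2.33 in siNC and 9.30, 6.36 and 9.49 in siQk. These shares and ratios use the contrast that selected *Snap23*, and are a description.

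**Figure D2:**
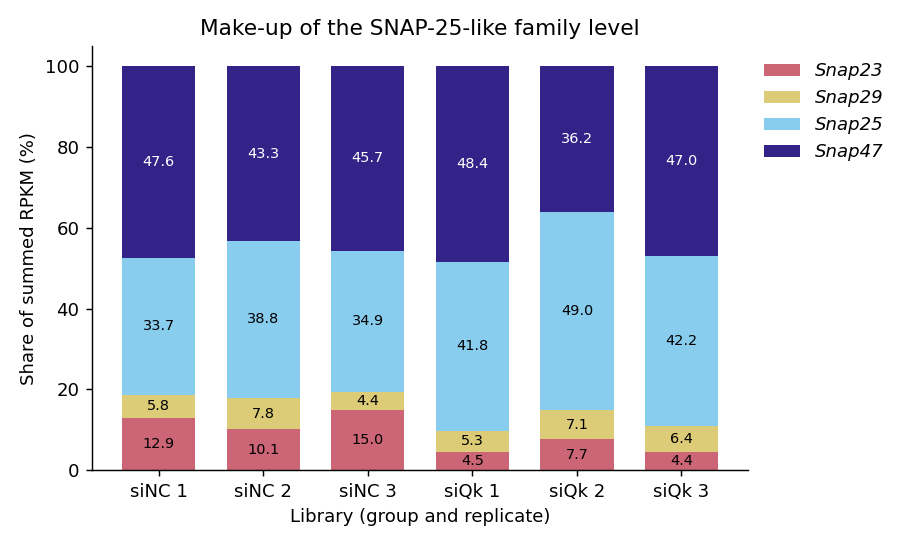
Stacked bars of the share (%) that each SNAP-25-like gene took of the summed RPKM of the 4 genes, one bar per library. Snap23, at the foot of each bar, takes 10.1% to 15.0% in siNC and 4.44% to 7.70% in siQk, and Snap25 takes 33.7% to 38.8% and 41.8% to 49.0%.

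*Nsf* (Entrez 18195, chr11:103821782-103954056, minus strand) encodes the ATPase that disassembles SNARE bundles. It had 21.2, 24.8 and 23.6 RPKM in siNC and 23.6, 24.0 and 20.1 RPKM in siQk. The groups lay within one another's reach, and siQk replicate 3 was the lowest. The log2 difference was -0.06 (SE 0.10, exact permutation p = 0.7), and the within-group SD of 0.13 was the smallest among the 8 genes. Its longest coding transcript held 1 site, in the coding part of exon 19 (chr11:103827221-103827250, minus strand), as 51.2% of genes of like length held at least 1. It is printed because, like the *Snap23* site, it lies in coding sequence.
Nsf coding site: aatcaagaagttACTAATgttgattgagat

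*Napb* (Entrez 17957, chr2:148693985-148732467, minus strand) encodes beta-SNAP, the attachment protein known as the brain-enriched form. Its level was 3.82, 5.20 and 5.14 RPKM in siNC, from 718, 909 and 816 counts. In siQk it was 8.43, 8.13 and 9.28 RPKM, from 1419, 1607 and 1580 counts. All siQk libraries were above all siNC libraries, and the gap between the groups was wider than either group's range. The means were 4.72 ± 0.780 and 8.61 ± 0.599 RPKM (SD, n = 3 each), a ratio of 1.83. The log2 difference was 0.84 (SE 0.16), and 99.6% of genes tested had a value this high or lower.

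The difference in *Napb* did not pass the call of the edgeR quasi-likelihood test (adjusted p = 0.9996). The two-sided exact permutation test on RPKM gave p = 0.1, the smallest it can give here. DESeq2 gave an adjusted p = 0.0900, inside the cutoff, and over the 13 alternatives the adjusted p ran from 0.0900 to 0.9999. The unadjusted p was under 0.05 in 13 of 13 alternatives, and the log2 difference stayed between 0.71 and 0.94. Of the 6 motor neuron markers, *Isl1*, *Lhx3* (0.198 and 0.415 RPKM), *Chat* (0.0509 and 0.126 RPKM) and *Slc5a7* (0.00543 and 0.00925 RPKM) had higher means in siQk, as *Napb* did. *Slc18a3* and *Mnx1* had lower means. Only *Isl1* and *Slc18a3* were above 1 RPKM, and a link of these markers to *Napb* was not tested.

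The longest coding transcripts of *Napa* and *Napb* held 0 sites of ACTAAC or ACTAAT, where 35.1% and 54.4% of genes of like length held at least 1. Over all annotated transcripts *Napb* held 2 sites, *Nsf* 4, *Napg* 4 and *Napa* 0. No share of all genes was computed for these counts. The longest coding transcript of *Napg* held 1 site, where 48.9% of genes of like length held at least 1. The sites outside the longest coding transcripts lay in retained-intron or other non-coding transcripts.

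*Napa* (Entrez 108124, chr7:16098458-16117975, plus strand) encodes alpha-SNAP, the general attachment protein, and shares 75.5% of aligned coding positions with *Napb*. It had 87.4, 83.4 and 57.3 RPKM in siNC and 72.6, 67.9 and 76.7 RPKM in siQk. One control, siNC replicate 3, was the lowest of the 6 libraries and the other controls were the highest. The log2 difference was -0.09 (SE 0.18, exact permutation p = 0.7). *Napb* made up 4.19%, 5.87% and 8.23% of the summed level of *Napa* and *Napb* in siNC and 10.4%, 10.7% and 10.8% in siQk. *Napa* stayed the main form in every library, with 8.26 times the level of *Napb* or more.

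*Napg* (Entrez 108123, chr18:62977831-62999450, plus strand) encodes gamma-SNAP, the most divergent attachment protein, with 49.3% coding identity to *Napa*. It had 21.8, 23.5 and 22.5 RPKM in siNC and 17.6, 32.6 and 22.5 RPKM in siQk. The controls were close together, and siQk replicates 1 and 2 were the lowest and the highest of all 6. The log2 difference was 0.07 (SE 0.26, exact permutation p = 0.9), and it turned to -0.20 without siQk replicate 2. The ratio of the summed attachment protein levels to *Nsf* was 5.34, 4.51 and 3.61 in siNC and 4.17, 4.54 and 5.39 in siQk, and the groups overlapped.

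In siNC the genes ranked by level per length from *Napa* (76.1 RPKM) through *Snap47* (64.7), *Snap25* (51.1), *Nsf* (23.2), *Napg* (22.6), *Snap23* (17.9) and *Snap29* (8.62) to *Napb* (4.72 RPKM). Ranges over the libraries overlapped for *Napa* and *Snap47* and for *Nsf* and *Napg*, and for no other neighbours in this order. In siQk *Snap23* went from rank 6 to rank 8, the lowest mean of the 8, and *Napb* from rank 8 to rank 7. *Snap29*, *Napb* and *Snap23* overlapped as neighbours at that end, at 8.73, 8.61 and 7.80 RPKM. The order rests on the exon lengths in the files. For *Nsf* that length was 6871 bases, whereas its longest annotated coding transcript has 3766, over which the siNC mean would be 42.3 RPKM, still between *Snap25* and *Napg*.

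**Figure D3:**
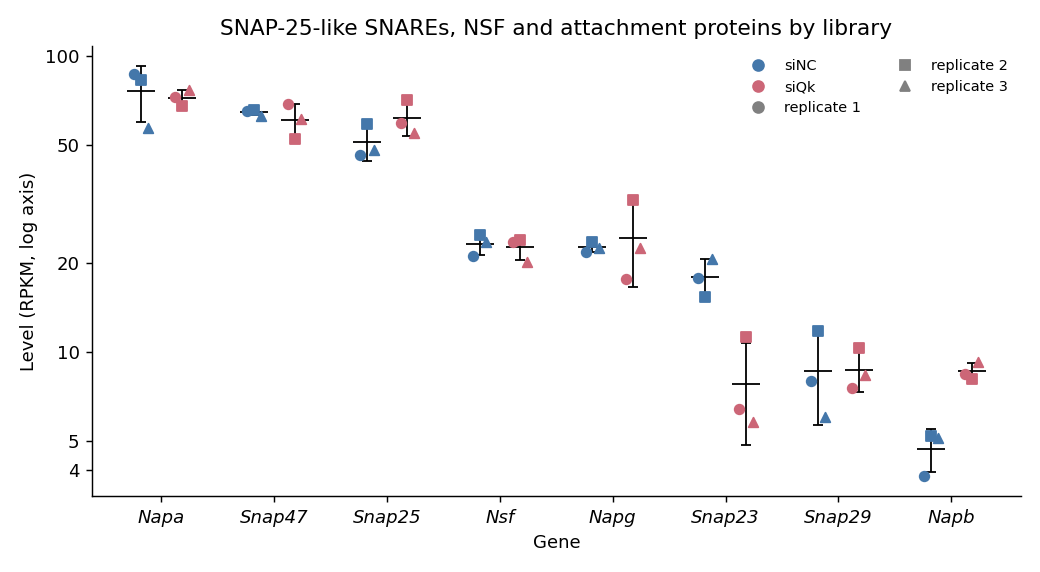
Level (RPKM, log axis) of the 8 genes in each library, blue for siNC and red for siQk with a marker shape per replicate number, and the mean and SD of each group in black. The groups separate for Snap23, which is lower in siQk (5.80 to 11.2 RPKM), and for Napb, which is higher (8.13 to 9.28 RPKM), and they overlap for the other 6 genes.

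The partners of these proteins were taken as 5 lists of 54 genes, of which 49 were tested. In all, 24 were lower and 25 higher in siQk, 0 passed the call, and the median log2 difference was 0.0031 (range -0.33 to 0.73). An unadjusted p under 0.05 in the edgeR quasi-likelihood test was found for 1 of 49 (2.04%) and non-overlapping groups for 3 of 49 (6.12%), all 3 lower. The corresponding shares of all genes were 2.89% and 8.84%, and 3.49% for non-overlapping groups with siQk lower.

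Plasma membrane syntaxins, which pair with SNAP-23 and SNAP-25 at the cell surface, had 2 of 6 lower and 4 higher, with a median log2 difference of 0.08. None had an unadjusted p under 0.05 and all had overlapping groups. *Stx4a*, the syntaxin best known as a partner of SNAP-23, was at 31.7 ± 12.6 RPKM in siNC and 37.3 ± 1.75 RPKM in siQk (exact permutation p = 0.7). *Stx11* (3.09 and 4.47 RPKM) and *Stx3* (2.63 and 2.43 RPKM) had exact permutation p = 0.5 and p = 0.5. *Stx19* was too low to test.

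Among 16 Q-SNAREs of endosomes, Golgi and endoplasmic reticulum, 8 were lower and 8 higher, with a median log2 difference of 0.0012. *Gosr1*, a Golgi SNARE, was at 26.3 ± 2.04 RPKM in siNC and 21.3 ± 2.91 RPKM in siQk with no overlap (log2 difference -0.33, SE 0.15, exact permutation p = 0.1). *Stx7*, a late endosomal syntaxin, was at 69.4 and 87.1 RPKM (exact permutation p = 0.2), and *Stx6*, a syntaxin of the trans-Golgi network, at 25.2 and 22.4 RPKM (p = 0.2). The groups overlapped for these syntaxins. Among 9 R-SNAREs, the vesicle side of the bundle, 5 were lower and 4 higher and all overlapped. The 3 placed first by the fit were *Vamp7* (20.7 and 25.2 RPKM, exact permutation p = 0.3), *Vamp1* (11.2 and 9.84 RPKM, p = 0.4) and *Vamp2* (19.04 and 23.4 RPKM, p = 0.6).

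Of 14 SNARE-binding regulators tested, 5 were lower and 9 higher, with a median log2 difference of 0.10. *Stxbp5l*, encoding a tomosyn that binds SNAP-25 and syntaxin and holds back fusion, was low, at 0.605 ± 0.201 RPKM in siNC and 1.02 ± 0.271 RPKM in siQk. Its groups overlapped, and the log2 difference was 0.73 (SE 0.34, adjusted p = 0.9996 in the edgeR quasi-likelihood test), the 1 unadjusted p under 0.05 among the partners. *Vps45*, a Sec1/Munc18 protein of endosomal traffic, was at 10.5 ± 2.11 and 8.79 ± 0.447 RPKM with no overlap (exact permutation p = 0.1). *Vps33a*, another protein of that family, was at 9.72 and 11.5 RPKM (exact permutation p = 0.3). *Stxbp6*, *Cplx3* and *Cplx4* were too low to test.

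Palmitoyltransferases attach the lipid that holds SNAP-23 and SNAP-25 to the membrane, and 4 of 4 tested had fitted log2 differences below 0 (median -0.07). For *Zdhhc7* the fitted value was -0.01 while its mean RPKM was 22.7 in siNC and 22.9 in siQk. *Zdhhc3* was at 7.16 ± 0.453 and 6.14 ± 0.556 RPKM with no overlap (exact permutation p = 0.1). *Zdhhc17* and *Zdhhc2* overlapped, with exact permutation p = 0.5 and p = 0.9, and *Zdhhc15* was too low to test.

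**Figure D4:**
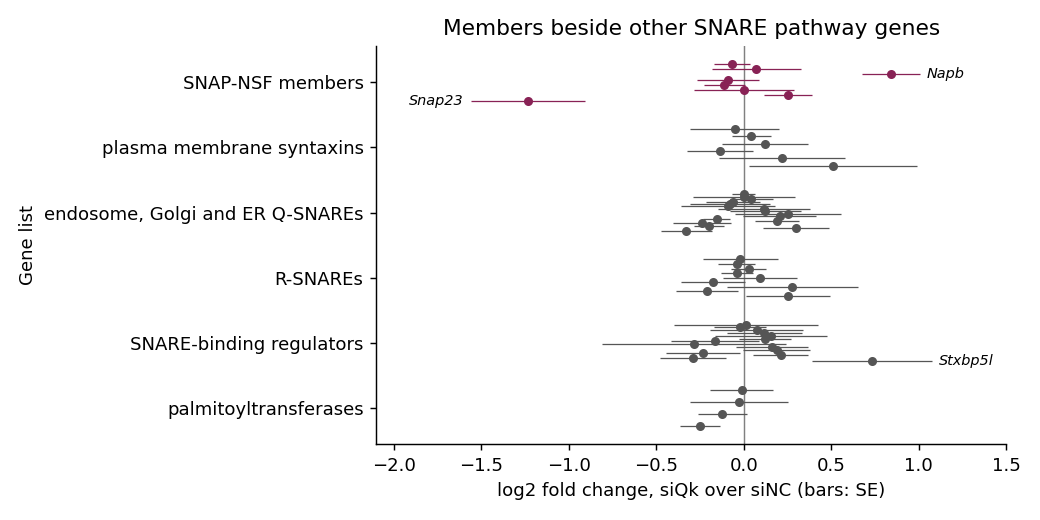
Log2 fold change of siQk over siNC (horizontal, bars are SE) for the 8 SNARE machinery genes at the top and for the 49 tested genes of 5 lists of partners, one row of points per list. Snap23 (-1.23) and Napb (0.84) lie outside the range of the partners, -0.33 to 0.73, and the other 6 lie between -0.11 and 0.25.

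The genes whose pattern over the 6 libraries was nearest to that of *Snap23* were found by the root mean square difference of centred log2 CPM, a measure that includes the contrast on which *Snap23* was selected. They were *Tgm4* (0.234), *Fkbp7* (0.268), *Ptgs1* (0.313), *Fetub* (0.335) and *Ptgir* (0.335), where the median of 12664 genes was 0.764. *Tgm4*, a transglutaminase gene, had 2.66, 1.69 and 2.62 RPKM in siNC and 1.01, 1.19 and 0.902 RPKM in siQk. *Ptgs1*, encoding a cyclooxygenase, had 48.0, 44.9 and 53.4 RPKM in siNC and 23.6, 53.5 and 22.1 RPKM in siQk. It shared the higher level in siQk replicate 2 and its groups overlapped, while those of the other 4 did not. Over all genes the groups did not overlap for 8.84%, and genes picked for nearness to *Snap23* share its separation through that choice. *Tgm4* had 115 to 375 counts per library and *Fkbp7* 42 to 179. Among the relatives of *Snap23*, *Nsf* was nearest, at rank 2088 of 12664, and *Napb* farthest, at rank 12368. *Qk* itself, with its larger change, was at rank 9983.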

How the data were processed

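Poly-A RNA of 6 NSC-34 libraries (TruSeq version 2 kit, which keeps no strand) was sequenced by the authors as paired 75-base reads, aligned with OLego and counted with Quantas (versions not given in the sources used here). The labels name the build mm10, and the methods name it in 2 ways. The deposited files hold, per gene, expected counts, the exon length and RPKM, which the authors scaled by that length and the library's column total only. Groups follow the treatment label. The labels give no batch, and p-values measure the spread between cultures of 1 line, which in siQk may include differences between siRNAs.

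Expected counts were rounded and scaled by TMM. Genes with mean log2 CPM above 0 were tested with the edgeR 4.0.16 quasi-likelihood test in R 4.3.3 on all 6 libraries, with Benjamini-Hochberg adjustment over 12665 genes. A call needed p under 0.01 and adjusted p under 0.1, the study's cutoffs. The SE comes from TMM-scaled log2 CPM (prior count 2). Precision rests on 3 libraries per group, and counting error was not compared with the spread between libraries. The alternatives were DESeq2 1.42.0 size factors and test, total counts, no filter, filterByExpr (minimum count 10), the edgeR exact test, a replicate block and leaving out each library. Scripts were tested on simulated data.

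Positions, exons and transcript sequences come from GENCODE M21 (GRCm38), and were searched and aligned in Python 3.11.15 with Biopython 1.88. Exact permutation tests used scipy 1.17.1. A protein alignment was planned and coding bases were aligned instead. Identity was counted over all alignment columns, gaps included, so unlike lengths lower it. The genes and lists were chosen with earlier results of these data known. Named genes are *Qk*, the 8 genes, the 3 smallest p per list, the 5 genes nearest to *Snap23* and its neighbours. Genes that share exon bases, *Zdhhc7* and the listed genes too low to test were added. One planned marker and one sequence are not reported here.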

Additional observations from a re-analysis of the deposited data

How the results depend on the processing

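*Snap23* was lower under every alternative run, with log2 differences of -1.24 to -1.20 under other scalings, filters and tests and -1.28 with a replicate block. Leaving out 1 library gave -1.59 to -1.07. Its within-group SD was 0.22 without siQk replicate 2, an alternative chosen after seeing the data. The number of genes called was 5 under the edgeR exact test, 19 under DESeq2 and 0 to 1 on leaving out 1 library (0 without siNC replicate 1). Of the 7 relatives, 1 was called under DESeq2 (*Napb*, log2 difference 0.84) and 0 otherwise. The causes were not tested. *Snap29* had -0.0026 with DESeq2 size factors, -0.0018 with no filter and -0.0025 with DESeq2, and -0.18 to 0.27 on leaving out 1 library, with -0.05, -0.18 and -0.13 without siNC replicate 1, siNC replicate 3 and siQk replicate 2. Leaving out 1 library gave -0.24 to 0.018 for *Napa* (above 0 without siNC replicate 1), -0.20 to 0.26 for *Napg* (below 0 without siQk replicate 2) and -0.13 to 0.0029 for *Nsf* (above 0 without siQk replicate 3). None of these had passed a test. The same step gave 0.14 (without siQk replicate 2) to 0.34 for *Snap25* and -0.21 (without siQk replicate 1) to -0.02 (without siQk replicate 2) for *Snap47*. List medians ran from -0.05 (without siNC replicate 3) to 0.21 (without siNC replicate 1) for the plasma membrane syntaxins and -0.01 (without siNC replicate 3) to 0.14 for the regulators. They ran from -0.06 to 0.05 for the other Q-SNAREs, -0.04 to 0.04 for the R-SNAREs (-0.02 over all libraries), -0.16 to -0.02 for the palmitoyltransferases and -0.03 to 0.04 over all lists.

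With transcript lengths from the annotation, an alternative chosen after seeing the data, siNC means were 14.6 RPKM for *Snap23*, 62.8 for *Snap47* and 42.3 for *Nsf*. Of the 5 genes nearest to *Snap23*, 2 to 3 were among the nearest 5 on leaving out 1 library. Deviations of same-numbered libraries correlated at 0.21, 0.02 and -0.17, which gives no ground for pairing by number. A replicate block called 1 gene, gave *Snap23* -1.28 and changed no call. With 3 libraries per group, a permutation test cannot reach 0.05, and isoforms were not measured.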
